A study of Mus musculus with 18 samples.

Results

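The levels of 9 sialyltransferase genes were followed in mouse liver: St3gal1, St3gal2, St3gal3, St3gal4, St3gal5, St3gal6, St6gal1, St6galnac4 and St6galnac6. They were chosen by gene symbol from the 19057 genes of the deposited table, and all 9 were found. Attention had been drawn to the family on the values of St3gal1 in A10-FMT and HS livers, so that comparison is given here as values with no test. The other comparisons of St3gal1 that include HS or A10-FMT reuse those values and are described without a call. This leaves HS+A10 against A10 and A10 against Con as its tests, whose group means use no library of HS or A10-FMT. The SE of these tests still comes from a fit of all 18 libraries, and the members were chosen with earlier results of these data known. An interaction given below also holds HS, and nothing is read from St3gal1 there.

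Sialyltransferases sit in the Golgi apparatus and move sialic acid from its activated donor, CMP-sialic acid, to the outer ends of the sugar chains of glycoproteins and glycolipids. The St3gal and St6gal enzymes cap galactose, through the linkage that each name gives, and the St6galnac enzymes add sialic acid to N-acetylated sugars such as N-acetylgalactosamine. Hepatocytes secrete most plasma glycoproteins with sialic acid at the ends of their chains, and chains that have lost it are taken up by the asialoglycoprotein receptor of the same cells.

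RNA-seq was performed on livers of ICR mice at 10 weeks of age, in 6 groups of 3 libraries, and the mice of the 4 groups described in the methods were male. Con mice had the regular diet and saline. HS mice had a high-fat diet that began at 3 weeks and a single dose of streptozotocin (STZ, a compound toxic to the insulin-producing beta cells) of 85 mg/kg at 5 weeks, a diet and toxin model of type 2 diabetes. A10-FMT and Con-FMT mice had the same diet and STZ, and from 5 to 7 weeks received intestinal microbiota pooled from donors that were given 10 mg/kg alginate oligosaccharide (AOS, short chains of the seaweed polysaccharide alginate) or from control donors, so that A10-FMT and Con-FMT differ in the donors alone. By their labels, A10 mice were given AOS at 10 mg/kg and HS+A10 mice had high-fat diet, STZ and AOS at 10 mg/kg. High-fat diet and STZ were thus part of HS, HS+A10, A10-FMT and Con-FMT. For HS+A10 the start of the diet and the time and dose of STZ are not given, so they may differ from those of HS. The labels of A10 and HS+A10 give no dosing period, and no other source on these groups was used here. The labels do not say that each library came from another mouse, so the p-values measure the spread between these libraries only.

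The values were RPKM, in which a gene's reads are divided by gene length and library size, so that levels can be set side by side between genes. They summed to between 692818 and 806937 per library, and the number of reads behind them is unknown. Hepatocyte markers dominated all 18 libraries, with Alb, Apoa1, Ttr, Serpina1c and Fgb summing to between 42595 and 68457 RPKM, and a fall in the cells of a type cannot be told apart from less RNA per cell in such whole-tissue libraries. The third Con library lay between the other Con libraries at 97.9% of the 140 genes on which those differed by over 1 on the log2 scale, and the third A10 library did so at 95.6% of 135 genes, against 4.35 to 74.3% in the other 16 libraries. Calls on Con and A10 were therefore also made from the 16 libraries without these. The third Con-FMT library held transcripts of pancreatic acinar cells, whose 8 markers summed to 13915 RPKM there and to at most 3.37 RPKM elsewhere, and calls on Con-FMT were also made without it. Calls of members that were lost in either way are named beside the gene. For the genes of the lists, lost calls are named together ahead of the list values and are not repeated beside them.

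St3gal1 lies on chr15:67102875-67176830 on the minus strand of GRCm38, St3gal2 on chr8:110919922-110972480 on the plus strand, St3gal3 on chr4:117932154-118134914 on the minus strand, St3gal4 on chr9:35046576-35119268 on the minus strand, St3gal5 on chr6:72097592-72154571 on the plus strand, St3gal6 on chr16:58468125-58524243 on the minus strand and St6gal1 on chr16:23224740-23360350 on the plus strand. St6galnac4 on chr2:32587095-32599698 and St6galnac6 on chr2:32599709-32620806 follow each other on the plus strand with 10 bases between them. The values of each gene cover all of its transcripts.

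Of the members with the largest log2 changes between Con-FMT and HS, St3gal4 and St3gal5 were higher in Con-FMT and St3gal3 was lower, and the 250 bases before their RefSeq transcription starts are shown to set these regions side by side (RefSeq, GRCm38.p6, where 7 of the 9 genes have such a window). The gene spans above are those of GENCODE, whose starts can differ, and the St3gal4 window lies within its GENCODE span. The windows of St3gal4 and St3gal5 include 9 and 16 bases of GENCODE exons. Capitals mark the GC box GGGCGG, the CCAAT box CCAAT and the E-box CACGTG, each searched on both strands.
St3gal4 (chr9:35116865-35117114, minus strand): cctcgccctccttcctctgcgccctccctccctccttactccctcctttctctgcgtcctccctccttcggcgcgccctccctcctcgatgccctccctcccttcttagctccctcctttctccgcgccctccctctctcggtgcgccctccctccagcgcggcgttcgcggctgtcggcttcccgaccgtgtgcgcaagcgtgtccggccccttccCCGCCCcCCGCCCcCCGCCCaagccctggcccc
St3gal5 (chr6:72097358-72097607, plus strand): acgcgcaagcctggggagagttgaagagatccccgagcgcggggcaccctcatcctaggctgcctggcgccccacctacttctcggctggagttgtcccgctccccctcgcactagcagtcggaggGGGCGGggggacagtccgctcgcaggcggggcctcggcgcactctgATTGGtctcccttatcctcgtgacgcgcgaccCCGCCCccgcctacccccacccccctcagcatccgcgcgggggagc
St3gal3 (chr4:118134947-118135196, minus strand): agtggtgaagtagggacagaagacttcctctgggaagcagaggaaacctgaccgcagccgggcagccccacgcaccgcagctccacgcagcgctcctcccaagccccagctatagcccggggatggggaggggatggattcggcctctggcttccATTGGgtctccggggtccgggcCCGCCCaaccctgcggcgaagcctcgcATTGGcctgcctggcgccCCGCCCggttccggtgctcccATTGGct
All 3 windows are rich in G and C, with 72.8% in St3gal4, 71.6% in St3gal5 and 68.4% in St3gal3, against a median of 52.4% over 32851 windows of the same length. The GC box occurs 3 times in St3gal4, 2 times in St3gal5 and 2 times in St3gal3, and 32.7% of all windows hold it. The CCAAT box occurs 0 times in St3gal4, 1 time in St3gal5 and 3 times in St3gal3, and 33.9% of all windows hold it. The E-box is in none of these 3 windows and in 6.02% of all.

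By their mean over all 18 libraries, 6 members were well expressed and 3 were low. St3gal5 averaged 36.2 RPKM, St3gal4 32.7, St3gal3 28.6, St6gal1 22.7, St3gal1 21.2 and St6galnac6 17.0. St6galnac4 averaged 0.838 RPKM, St3gal6 0.738 and St3gal2 0.526. The first 6 passed the filter of a mean of at least 1 RPKM and were tested with the other genes, 10204 in all, and the last 3 did not. The sum of the 9 was 147 ± 13.0 RPKM (SD, n = 3) in Con, 162 ± 7.41 in HS, 157 ± 18.6 in A10, 157 ± 2.33 in HS+A10, 198 ± 19.4 in Con-FMT and 141 ± 4.26 in A10-FMT. The plot of the members by library shows which genes carry these differences.

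**Figure D1:**
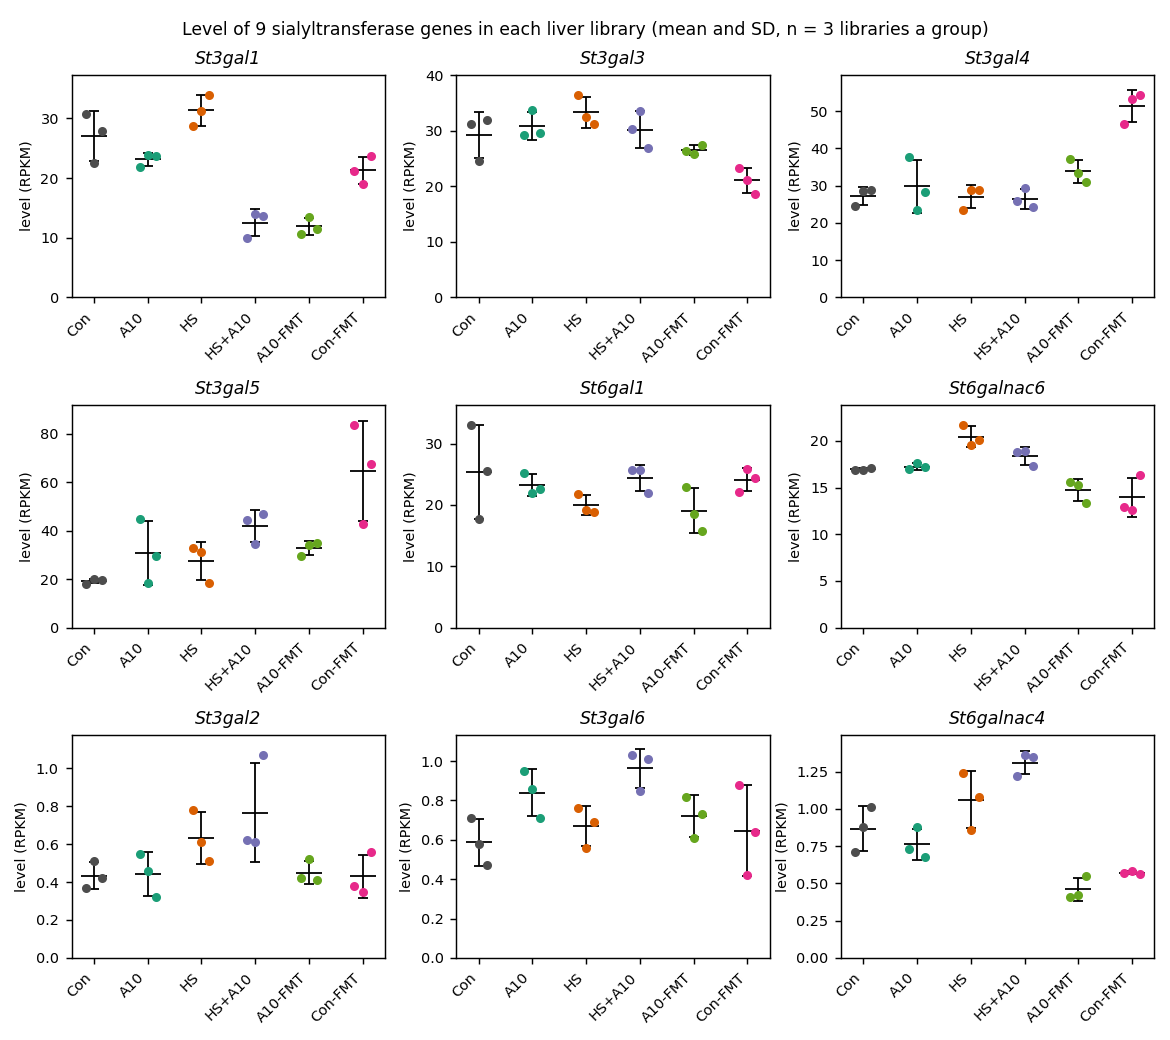
Level of each of the 9 genes in RPKM (vertical axes, each from 0) in the 18 libraries by group, where points are libraries and the black bars are the mean and SD of 3. St3gal1 is low in HS+A10 and A10-FMT, with all 6 libraries at or below 13.94 RPKM, and St3gal4 is at 46.63 RPKM or more in the 3 Con-FMT libraries.

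Changes were tested with limma on log2(RPKM + 1) in 1 fit of all 18 libraries, and a gene was called at a Benjamini-Hochberg adjusted p under 0.05 over all tested genes. Between Con-FMT and HS, 2 of the 6 tested members were higher, where 4.61% of all tested genes were, and 3 were lower, where 19% were. Between A10-FMT and Con-FMT, 0 members were higher (6.72% of all tested genes) and 3 were lower (12%), while 1, St3gal3, was higher with median scaling, with quantile normalization and without the first Con-FMT library. Between HS+A10 and HS, 0 were higher (2.95%) and 1 was lower (4.37%), and between HS+A10 and A10, 0 were higher (13.6%) and 1 was lower (7.28%). Between HS and Con, 0 of 6 members were called by limma in either direction, where 15.9% of all tested genes were higher and 1.87% lower, and 1 member was at an unadjusted p under 0.05. Between A10 and Con, 0 of 6 were called by limma (0.049% of all tested genes higher, 0.0196% lower), and 0 members were at an unadjusted p under 0.05. St3gal1 is 1 of the 3 lower members in Con-FMT against HS and in A10-FMT against Con-FMT and the 1 in HS+A10 against HS, and since its HS and A10-FMT values drew attention to the family, nothing is read from its part in these counts. These comparisons share groups: HS enters 3 of them, and A10-FMT, Con-FMT, HS+A10, A10 and Con enter others. The means of HS+A10 against A10 use no library of HS or A10-FMT, while the spread is that of all 18 libraries.

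The values were used as deposited, and over all tested genes the log2 change had a median of 0.14 in HS against Con, -0.12 in Con-FMT against HS and -0.16 in A10-FMT against HS. Relative to that median, the Con-FMT against HS changes were -0.42 for St3gal1, -0.53 for St3gal3, -0.41 for St6galnac6, 1.02 for St3gal4 and 1.31 for St3gal5. All 5 kept their direction with each library scaled to the same median.

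**Figure D2:**
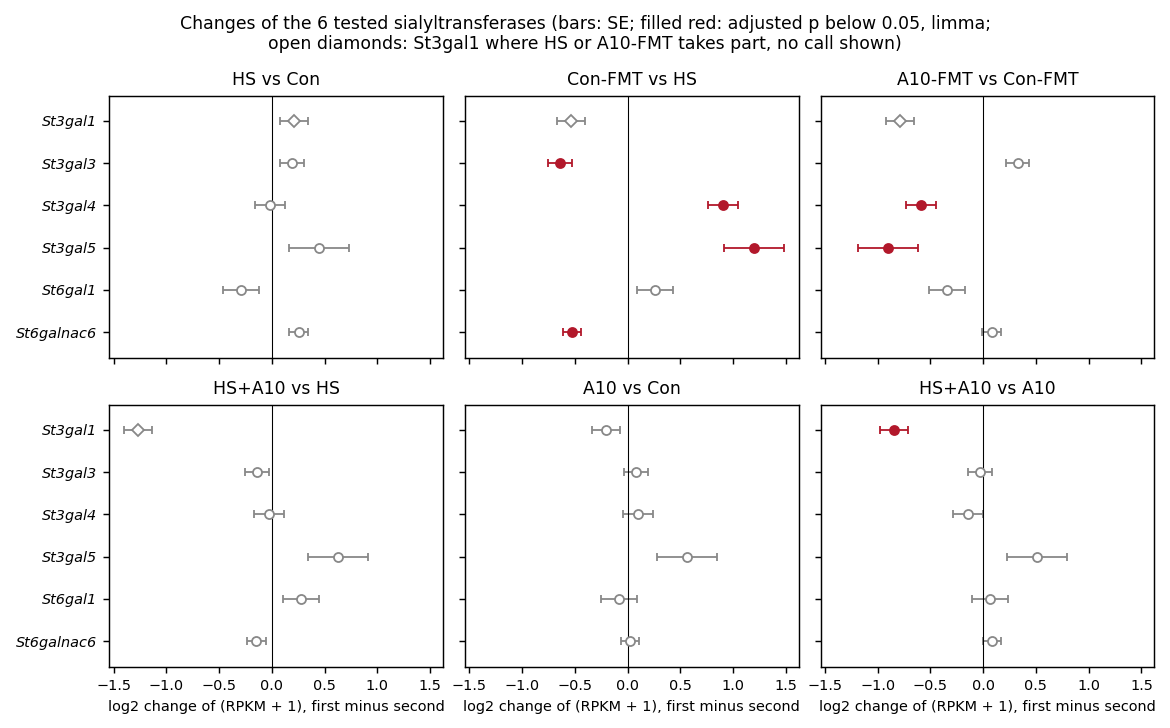
Log2 change of the 6 tested members in 6 comparisons, in log2(RPKM + 1) as the first group minus the second (horizontal axes), with the SE of limma as bars and filled red points at an adjusted p under 0.05. Open diamonds mark St3gal1 where HS or A10-FMT takes part, without a call. St3gal1 is red at -0.85 in HS+A10 against A10, and St3gal4 and St3gal5 are red on opposite sides of 0 in Con-FMT against HS and in A10-FMT against Con-FMT.

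St3gal1 caps the galactose of core 1 O-glycans, the short chains on serine and threonine of mucin-like proteins. It was highest in HS and Con, lower in A10 and Con-FMT, and lowest in HS+A10 and A10-FMT. Its level was 30.79, 22.58 and 27.83 RPKM in the Con libraries and 21.87, 23.92 and 23.65 RPKM in those of A10. The HS libraries held 28.77, 31.27 and 33.95 RPKM, and those of HS+A10 10.04, 13.94 and 13.69 RPKM. A10-FMT livers held 10.67, 13.55 and 11.47 RPKM, and Con-FMT livers 21.20, 19.07 and 23.65 RPKM. All 6 libraries of HS+A10 and A10-FMT lay below all 12 others. Neighbours in the order HS, Con, A10, Con-FMT overlapped, Con-FMT did not overlap HS+A10, and HS+A10 overlapped A10-FMT.

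Against A10, St3gal1 in HS+A10 was at 54.2% of the mean (log2 change -0.85 ± 0.13 SE, limma adjusted p = 0.000538). Neither mean uses a library of HS or A10-FMT, while the SE comes from the fit of all libraries. In the 16 libraries the change was -0.83 with limma adjusted p = 0.00682. The A10 and Con levels overlapped, with a change of -0.21 ± 0.13 (limma adjusted p = 0.512) and -0.20, adjusted p = 0.798, in the 16 libraries.

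The other differences of St3gal1 use the HS or A10-FMT values that drew attention to it and are given as descriptions. The HS+A10 mean was 40.1% of that of HS (log2 change -1.26 ± 0.13 SE). A10-FMT livers held 55.8% of the Con-FMT mean (-0.79 ± 0.13), with a change of -0.72 without the third Con-FMT library. Con-FMT livers held 68.0% of the HS mean (-0.54 ± 0.13), with a change of -0.61 without that library. In all 3 the groups did not overlap. The levels of HS and Con overlapped, with a change of 0.21 ± 0.13, 0.24 in the 16 libraries and 0.03 once libraries were scaled to the same median.

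Whether high-fat diet and STZ moved the members by a different amount in mice given AOS was tested as an interaction, the change from A10 to HS+A10 minus that from Con to HS. For St3gal1 it was -1.06 ± 0.19, which was not called (limma adjusted p = 0.0638). That p is favoured by the choice of the gene through HS, so nothing is read from it. None of the other members was called either (0 of 6 called by limma, with St3gal1 as the 1 at an unadjusted p under 0.05, where 0.0098% of all tested genes were called). Over 21 alternatives the St3gal1 value lay between -1.15 and -0.92. It came under the threshold in 2 of them, each with a single library left out, and was not called in the 16 libraries.

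In A10-FMT and HS, the comparison through which the family was picked, the St3gal1 levels did not overlap and the mean of A10-FMT was 38.0% of that of HS. The other tested members changed between -0.45 and 0.32 on the log2 scale there, with St6galnac6 lowest and St3gal4 highest. No test is given for these values.

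Markers of liver cells were set beside St3gal1. The 8 markers of Kupffer cells and macrophages summed to 68.4 to 115 RPKM in HS, 74.5 to 116 in HS+A10 and 46.2 to 58.7 in A10-FMT, so that HS and HS+A10 overlapped while A10-FMT was below both. Of these 8, limma called 0 in HS+A10 against HS and 0 in A10-FMT against Con-FMT, with 0 and 1 at an unadjusted p under 0.05. The 5 markers of sinusoidal endothelium, the lining cells of the liver's capillaries, summed to 51.4 to 61.3 RPKM in HS+A10 and 38.9 to 44.2 in HS, and 1 of 5 was higher in HS+A10 than in HS and 4 of 5 higher than in A10, while 2 of 5 were lower in A10-FMT than in Con-FMT. The 5 stellate cell markers summed to 107 to 169 RPKM in HS, 107 to 116 in HS+A10 and 83.1 to 105 in A10-FMT. In A10 they summed to 78.8 to 86.4 RPKM, below HS+A10, and 2 of 5 were higher in HS+A10 than in A10. The 5 hepatocyte markers summed to 48163 to 50234 RPKM in HS+A10, 44827 to 50145 in HS and 58743 to 65137 in A10, and 4 of 5 were lower in HS+A10 than in A10. The 5 B cell markers summed to at most 1.36 RPKM and the 5 T cell markers to at most 2.52 RPKM in HS, HS+A10 and A10-FMT. The 4 cholangiocyte markers, of the cells that line the bile ducts, summed to 2.09 to 2.64 RPKM in A10-FMT, 3.98 to 7.14 in Con-FMT, 2.16 to 4.24 in HS+A10, 2.98 to 4.86 in HS and 3.17 to 4.49 in A10. Of the 2 that were tested, 1 was lower in HS+A10 than in HS, in HS+A10 than in A10 and in A10-FMT than in Con-FMT. The part of these cells in the St3gal1 values was not tested.

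St3gal4 and St3gal3 cap the galactose of N-glycans, the chains of most plasma proteins, and St3gal4 also takes part in making selectin ligands on leukocytes. The levels of these genes moved in opposite directions in Con-FMT. St3gal4 was at 24.50, 28.54 and 28.88 RPKM in Con, at 37.60, 23.44 and 28.36 RPKM in A10 and at 23.44, 28.89 and 28.88 RPKM in HS. The HS+A10 libraries held 25.87, 29.38 and 24.25 RPKM, those of A10-FMT 37.07, 33.54 and 31.02 RPKM and those of Con-FMT 46.63, 53.20 and 54.40 RPKM. The 3 Con-FMT libraries were above all 15 others, and A10-FMT, A10, Con, HS and HS+A10 followed with overlap between neighbours.

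St3gal4 rose 1.90-fold in Con-FMT over HS (log2 change 0.90 ± 0.14, limma adjusted p = 0.000547), and by 0.86 with adjusted p = 0.00237 without the library that held acinar transcripts. In A10-FMT it fell to 65.9% of Con-FMT (-0.59 ± 0.14, limma adjusted p = 0.00971), with a change of -0.55 and adjusted p = 0.0319 without that library. In the other 4 comparisons its changes lay within -0.14 and 0.10 and were not called. The 5 neutrophil markers summed to 4.56 to 7.49 RPKM in Con-FMT, 1.33 to 5.07 in HS and 1.02 to 2.38 in A10-FMT, and both that were tested were lower in A10-FMT than in Con-FMT, as was 1 of 5 hepatocyte markers. Of the stellate cell markers, 2 of 5 were lower in Con-FMT than in HS, and of those of sinusoidal endothelium, 1 of 5 was higher and 1 of 5 lower. The part of all these cells in the values of St3gal4, St3gal3 and St3gal5 was not tested.

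St3gal3 was at 31.20, 24.50 and 32.03 RPKM in Con, at 29.22, 33.83 and 29.59 RPKM in A10 and at 36.51, 32.45 and 31.19 RPKM in HS. It held 30.27, 33.64 and 26.84 RPKM in HS+A10, 26.30, 25.88 and 27.52 RPKM in A10-FMT, and 23.32, 21.25 and 18.66 RPKM in Con-FMT. The Con-FMT libraries were below all 15 others, and the levels of the other 5 groups followed each other with overlap. St3gal3 fell to 63.1% of HS in Con-FMT (-0.64 ± 0.11, limma adjusted p = 0.00117), with a change of -0.56 and adjusted p = 0.0053 without the third Con-FMT library. The A10-FMT libraries lay above those of Con-FMT, by 0.33 ± 0.11, which was not called (limma adjusted p = 0.0555). This change was called with median scaling (0.40, limma adjusted p = 0.0376) and without the first Con-FMT library (0.40, limma adjusted p = 0.0442), and without the third Con-FMT library it was 0.24 with adjusted p = 0.188.

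The ratio of St3gal1 to St3gal4 within a library, chosen after the values were seen, sets an O-glycan enzyme against an N-glycan enzyme. It does not change when all values of a library are multiplied by 1 factor. It was 1.26, 0.791 and 0.964 in Con, 0.582, 1.02 and 0.834 in A10, and 1.23, 1.08 and 1.18 in HS. The HS+A10 ratios were 0.388, 0.474 and 0.565, those of Con-FMT 0.455, 0.358 and 0.435, and those of A10-FMT 0.288, 0.404 and 0.370. The 9 libraries of the last 3 groups were all below the 9 of Con, A10 and HS. The ratio holds the St3gal1 values of HS and A10-FMT that drew attention to the gene, so nothing is read from the place of these groups. In HS+A10 the low ratio went with low St3gal1 (mean 12.6 RPKM) and St3gal4 at 26.5 RPKM, and in Con-FMT with high St3gal4 (51.4 RPKM) and St3gal1 at 21.3 RPKM.

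**Figure D3:**
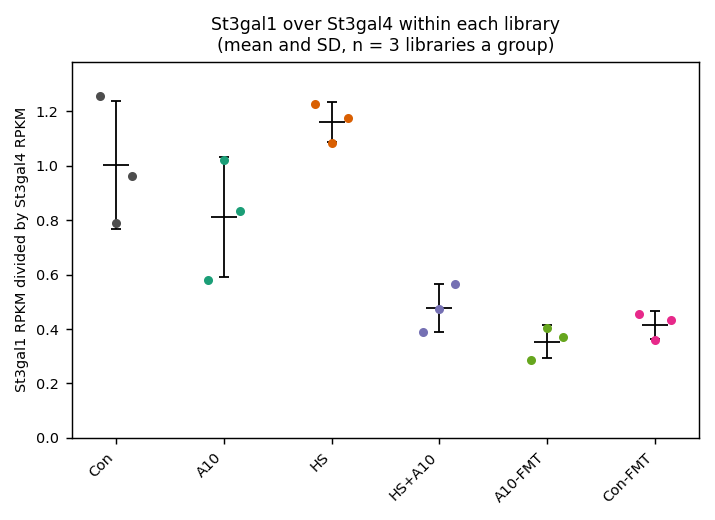
St3gal1 RPKM divided by St3gal4 RPKM within each of the 18 libraries by group (vertical axis from 0, no unit), where points are libraries and black bars the mean and SD of 3. The HS mean is 1.16 ± 0.07, and the means of HS+A10, A10-FMT and Con-FMT are 0.476, 0.354 and 0.416. HS and A10-FMT hold the St3gal1 values that drew attention to the gene.

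St6gal1, the enzyme that caps N-glycans of plasma proteins in hepatocytes through the other common linkage to galactose, was the tested member without a call. It was at 33.03, 17.70 and 25.52 RPKM in Con, 25.22, 21.94 and 22.61 RPKM in A10 and 21.78, 19.18 and 18.91 RPKM in HS. Levels were 25.73, 25.62 and 21.96 RPKM in HS+A10, 22.95, 18.55 and 15.69 RPKM in A10-FMT, and 22.15, 25.83 and 24.46 RPKM in Con-FMT. The order by mean was Con, HS+A10, Con-FMT, A10, HS and A10-FMT, and A10 and HS were the only neighbours without overlap. The spread was widest in Con, with an SD of 7.67 RPKM against 1.58 to 3.66 RPKM in the other groups.

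St6gal1 was not called in any comparison. Its change was -0.29 ± 0.17 in HS against Con (limma adjusted p = 0.229), 0.26 ± 0.17 in Con-FMT against HS (0.280) and -0.34 ± 0.17 in A10-FMT against Con-FMT (0.180). It was 0.28 ± 0.17 in HS+A10 against HS (limma adjusted p = 0.334), -0.08 ± 0.17 in A10 against Con (0.872), 0.07 ± 0.17 in HS+A10 against A10 (0.824) and 0.36 ± 0.24 for the interaction (0.538). In the 16 libraries it was -0.27 in HS against Con (limma adjusted p = 0.408), -0.04 in A10 against Con (0.978) and 0.05 in HS+A10 against A10 (0.917). Without the second Con library, the lowest of Con, HS against Con came to -0.52 with adjusted p = 0.0264. Without the third Con-FMT library it was 0.25 in Con-FMT against HS (limma adjusted p = 0.372) and -0.33 in A10-FMT against Con-FMT (0.277). In A10-FMT against HS its log2 difference was -0.08 as deposited and 0.11 with libraries scaled to the same median.

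St3gal5 is GM3 synthase, which makes the first ganglioside, GM3, from lactosylceramide. Its libraries spread widely within A10, HS and Con-FMT. Its level was 18.22, 20.06 and 19.57 RPKM in Con, 44.66, 18.33 and 29.61 RPKM in A10 and 32.69, 31.36 and 18.35 RPKM in HS. Livers of HS+A10 held 44.30, 34.72 and 47.13 RPKM, of A10-FMT 29.57, 34.09 and 35.11 RPKM, and of Con-FMT 83.67, 42.70 and 67.50 RPKM. Con-FMT lay above HS, Con and A10-FMT and overlapped HS+A10 and A10, and the neighbours in the order Con-FMT, HS+A10, A10-FMT, A10, HS and Con all overlapped.

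St3gal5 rose 2.35-fold in Con-FMT over HS (1.20 ± 0.28, limma adjusted p = 0.00751), and by 1.14 with adjusted p = 0.0218 without the third Con-FMT library. It was 50.9% of Con-FMT in A10-FMT (-0.90 ± 0.28, limma adjusted p = 0.0367), a call that was lost in 9 of 16 alternatives, with -0.85 and adjusted p = 0.0898 without the third Con-FMT library and adjusted p = 0.139 without the first. Fitted with the HS and Con-FMT libraries alone, the rise over HS was not called (limma adjusted p = 0.0611). Its other changes, between 0.45 and 0.63 on the log2 scale, were not called. The third Con-FMT library was neither the highest nor the lowest of its group for this gene.

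St6galnac6 adds sialic acid to gangliosides and related glycolipids. It was at 16.92, 16.92 and 17.11 RPKM in Con, 16.95, 17.66 and 17.18 RPKM in A10 and 21.71, 19.55 and 20.07 RPKM in HS. The levels were 18.87, 18.97 and 17.31 RPKM in HS+A10, 15.64, 15.25 and 13.35 RPKM in A10-FMT, and 12.94, 12.58 and 16.35 RPKM in Con-FMT. HS was above all other groups, and both microbiota recipient groups were below all of the others. St6galnac6 fell to 68.3% of HS in Con-FMT (-0.53 ± 0.09, limma adjusted p = 0.000815), with a change of -0.64 and adjusted p = 0.000172 without the third Con-FMT library. Its HS and Con libraries did not overlap, but the change of 0.25 ± 0.09 was not called (limma adjusted p = 0.0573), nor was it in the 16 libraries (0.26, limma adjusted p = 0.143). With libraries scaled to the same median this change was 0.07 (limma adjusted p = 0.607), and with quantile normalization 0.10 (limma adjusted p = 0.499).

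St6galnac4, which sialylates core 1 O-glycans that already carry a sialic acid, was low in all libraries. It was at 0.71, 0.88 and 1.01 RPKM in Con, 0.73, 0.88 and 0.68 RPKM in A10 and 1.24, 0.86 and 1.08 RPKM in HS. HS+A10 had 1.22, 1.36 and 1.35 RPKM, A10-FMT 0.41, 0.42 and 0.55 RPKM, and Con-FMT 0.57, 0.58 and 0.56 RPKM. The recipients of microbiota were below all 12 other libraries. In a fit of the 17837 genes with any reads, it was lower in Con-FMT than in HS (-0.39 ± 0.07, limma adjusted p = 0.00418) and higher in HS+A10 than in A10 (0.39 ± 0.07, limma adjusted p = 0.00394). The first had adjusted p = 0.0124 without the third Con-FMT library and the second 0.0257 in the 16 libraries. With quantile normalization the first was not called (-0.25, limma adjusted p = 0.0684) and the second was (0.32, limma adjusted p = 0.0180). On the RPKM values these comparisons had an exact two-sided permutation p = 0.1, the smallest that 3 against 3 libraries allow. Both it and its neighbour on chromosome 2, St6galnac6, were lowest in A10-FMT and Con-FMT.

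St3gal2 shares much of the substrate range of St3gal1, and St3gal6 acts on N-glycans and glycolipids. St3gal2 lay between 0.37 and 0.51 RPKM in Con, 0.32 and 0.55 in A10, 0.51 and 0.78 in HS, 0.61 and 1.07 in HS+A10, 0.35 and 0.56 in Con-FMT, and 0.41 and 0.52 in A10-FMT. St3gal6 lay between 0.47 and 0.71 RPKM in Con, 0.71 and 0.95 in A10, 0.56 and 0.76 in HS, 0.85 and 1.03 in HS+A10, 0.42 and 0.88 in Con-FMT, and 0.61 and 0.82 in A10-FMT. Neighbouring groups in the order of the means overlapped for both genes. Neither was called in the fit without a filter, where the smallest limma adjusted p was 0.0721 for St3gal2, in HS+A10 against A10, and 0.198 for St3gal6, in HS+A10 against HS.

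The table holds 11 further sialyltransferases, of which St6galnac2 alone passed the filter, with 0.29 to 3.56 RPKM. It lay between 2.09 and 2.55 RPKM in HS+A10 and between 0.29 and 0.54 RPKM in A10. Its mean over the other 5 groups was 0.991 RPKM, so it passed the filter only through HS+A10, where it was highest, and no test of it is given. It is still 1 of the higher genes counted below in HS+A10 against A10, and nothing is read from its part in that count. The other 10 reached at most 0.60 RPKM in any library, and St6gal2 and St6galnac5 were listed at 0 in all 18. All 6 polysialyltransferases and related St8sia enzymes were at or below 0.19 RPKM.

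Genes of 7 lists around the family were then read from the same fit, 84 genes of which 50 were tested: other sialyltransferases, donor synthesis, sialidases and breakdown, core 1 O-glycans, N-glycans, gangliosides and receptors. Of these 50, 6 were higher and 0 lower in HS against Con (2 higher and 0 lower with libraries scaled to the same median), 1 higher and 7 lower in Con-FMT against HS, and 1 higher and 9 lower in A10-FMT against Con-FMT. There were 1 higher and 3 lower in HS+A10 against HS, and 7 higher and 5 lower in HS+A10 against A10. In A10 against Con and in the interaction limma called 0 of 50, with 7 and 6 at an unadjusted p under 0.05. Read against all tested genes, the 12% higher in HS against Con stood beside 15.9%, the 14% lower in Con-FMT against HS beside 19%, and the 18% lower in A10-FMT against Con-FMT beside 12%. In HS+A10 against A10 the shares were 14% higher, St6galnac2 included, beside 13.6% and 10% lower beside 7.28%. In HS+A10 against HS they were 2% higher beside 2.95% and 6% lower beside 4.37%. The 2% higher in Con-FMT against HS and in A10-FMT against Con-FMT stood beside 4.61% and 6.72%. Nothing particular to the lists is read from them. The median log2 change of each list of more than 1 tested gene lay between -0.28 and 0.41 over the 6 comparisons, where that of all tested genes lay between -0.12 and 0.14, and both ends are given with their lists.

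Several of these calls depend on the libraries or their scaling. In HS against Con, Gnpnat1, Galnt10, Ugcg and Hexa were not called with median scaling, and Gnpnat1, Siae and Ugcg were not called in the 16 libraries, so that Pgm3 alone was called in both. In HS+A10 against A10, 6 of 12 were called in the 16 libraries, and Neu1, Amdhd2, Mgat4b, Slc35a2 and Hexa were among those that were not. Without the third Con-FMT library, Neu1, Mgat1, Mgat4b and B4galt1 were not called in Con-FMT against HS, and C1galt1c1, Man1a, Man2a2 and B4galt5 were not called in A10-FMT against Con-FMT. Without the first Con-FMT library, Slc35a1 and Neu1 were not called in Con-FMT against HS, and Nans, Pgm3, Man1a and Man2a2 were not in A10-FMT against Con-FMT. With median scaling, Slc35a1, Neu1, Mgat1 and Mgat4b were not called in Con-FMT against HS, Nans, Man1a and B4galt5 were not in A10-FMT against Con-FMT, and Gfpt1 and Gm2a were not in HS+A10 against HS. The genes lost in this way are named after their values were seen, and the values that follow are from all 18 libraries as deposited.

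Donor synthesis starts from the hexosamine pathway, in which Gfpt1, its first enzyme, then Gnpnat1, Pgm3 and Uap1 make UDP-N-acetylglucosamine. Gne, Nans, Nanp and Cmas turn that into CMP-sialic acid, which Slc35a1 carries into the Golgi apparatus. All 12 genes of this list were tested, and 4 of them were lower in A10-FMT than in Con-FMT, with a list median of -0.10 against -0.03 for all tested genes. These were Gfpt1 (-1.14 ± 0.20, limma adjusted p = 0.00154), Uap1 (-0.92 ± 0.21, limma adjusted p = 0.00734), Pgm3 (-0.54 ± 0.14, limma adjusted p = 0.0128) and Nans, which is named after its values were seen. Gfpt1 was at 9.32 ± 1.11 RPKM (SD, n = 3) in Con-FMT and 3.81 ± 1.38 RPKM in A10-FMT, and Uap1 between 20.9 and 35.3 RPKM in Con-FMT and between 11.8 and 18.3 RPKM in A10-FMT.

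Pgm3 was the list's most often called gene. It was at 3.54 ± 0.11 RPKM (SD, n = 3) in Con, 3.02 ± 0.31 in A10, 8.06 ± 0.83 in HS, 5.45 ± 1.19 in HS+A10, 3.88 ± 0.47 in A10-FMT and 6.12 ± 1.18 in Con-FMT. It rose in HS over Con (0.99 ± 0.14, limma adjusted p = 0.000431) and in HS+A10 over A10 (0.67 ± 0.14, limma adjusted p = 0.00314), and fell in HS+A10 against HS (-0.50 ± 0.14, limma adjusted p = 0.0389). Gfpt1 also fell in HS+A10 against HS (-0.72 ± 0.20, limma adjusted p = 0.0444), and Gnpnat1 rose in HS over Con (0.32 ± 0.10, limma adjusted p = 0.0422). Slc35a1 was lower in Con-FMT than in HS (-0.26 ± 0.09, limma adjusted p = 0.0435).

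**Figure D4:**
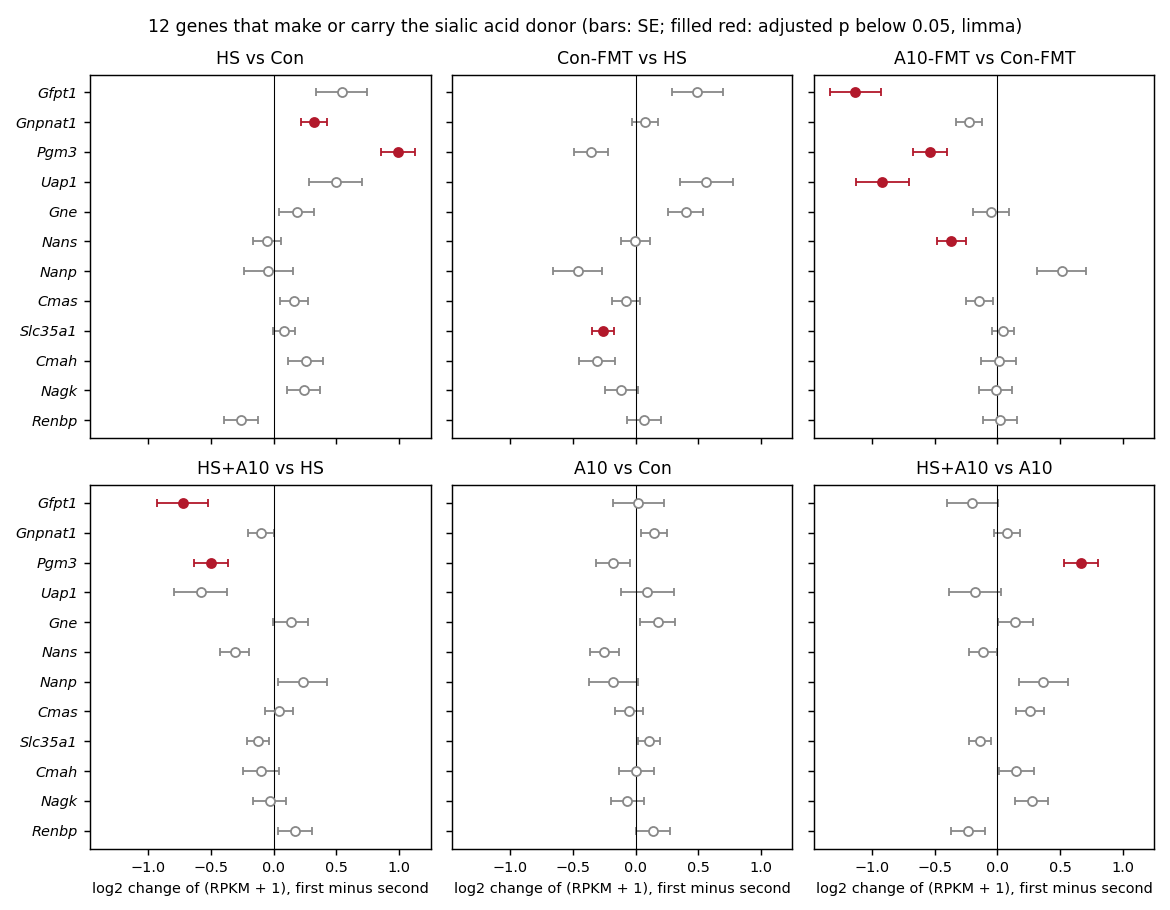
Log2 change of the 12 genes of sialic acid donor synthesis and transport in 6 comparisons, in log2(RPKM + 1) as the first group minus the second (horizontal axes), with SE bars and filled red points at a limma adjusted p under 0.05. The 4 red genes of A10-FMT against Con-FMT are all left of 0, with Gfpt1 at -1.14, and 0 are red in A10 against Con.

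On the O-glycan side, 7 of 12 listed genes were tested, with list medians of -0.13 to 0.16. C1galt1c1, the chaperone without which the core 1 galactose that St3gal1 caps is not added, was lower in A10-FMT than in Con-FMT (-0.34 ± 0.09, limma adjusted p = 0.0143) and lower in HS+A10 than in A10 (-0.35 ± 0.09, limma adjusted p = 0.0114). Galnt10, a transferase that adds the first sugar of O-glycans, was above Con in HS (0.47 ± 0.11, limma adjusted p = 0.0104), lower in Con-FMT than in HS (-0.44 ± 0.11, limma adjusted p = 0.00897) and higher in HS+A10 than in A10 (0.46 ± 0.11, limma adjusted p = 0.00806). With quantile normalization the Galnt10 change in Con-FMT against HS was not called (-0.25, limma adjusted p = 0.135).

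On the N-glycan side, 13 of 17 listed genes were tested, with list medians of -0.14 to 0.14. B4galt1, which adds the galactose that is then capped, was higher in Con-FMT than in HS (0.43 ± 0.14, limma adjusted p = 0.0420, given after its values were seen) and lower in A10-FMT than in Con-FMT (-0.64 ± 0.14, limma adjusted p = 0.00685), at 20.4 ± 5.68 RPKM (SD, n = 3) in Con-FMT, 14.7 ± 1.86 in HS and 12.5 ± 0.78 in A10-FMT. Slc35a2, the Golgi transporter of UDP-galactose, was lower in A10-FMT than in Con-FMT (-0.43 ± 0.09, limma adjusted p = 0.00436) and lower in HS+A10 than in A10 (-0.30 ± 0.09, limma adjusted p = 0.0282). Man2a2, which trims mannose, was lower in Con-FMT than in HS (-0.44 ± 0.08, limma adjusted p = 0.00231), above Con-FMT in A10-FMT (0.28 ± 0.08, limma adjusted p = 0.0321) and lower in HS+A10 than in A10 (-0.34 ± 0.08, limma adjusted p = 0.0114). The branching enzymes Mgat4b (-0.26 ± 0.08, limma adjusted p = 0.0284) and Mgat1 (-0.26 ± 0.08, limma adjusted p = 0.0377) were lower in Con-FMT than in HS.

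Of 9 ganglioside genes, 7 were tested, with list medians of -0.28, in Con-FMT against HS, to 0.17. Gm2a, the cofactor that presents GM2 for breakdown, was lower in Con-FMT than in HS (-0.61 ± 0.14, limma adjusted p = 0.0068), lower in HS+A10 than in HS (-0.50 ± 0.14, limma adjusted p = 0.0475) and lower in HS+A10 than in A10 (-0.96 ± 0.14, limma adjusted p = 0.000392). Hexa, a subunit of the enzyme it serves, was higher in HS than in Con (0.60 ± 0.15, limma adjusted p = 0.0173) and higher in HS+A10 than in A10 (0.64 ± 0.15, limma adjusted p = 0.00846). Ugcg, which makes glucosylceramide, was higher in HS than in Con (0.47 ± 0.14, limma adjusted p = 0.0346), and B4galt5, which makes the lactosylceramide that St3gal5 uses, was lower in A10-FMT than in Con-FMT (-0.61 ± 0.20, limma adjusted p = 0.0430).

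Of the genes that remove or break down sialic acid, 6 were tested of the 9 listed, with list medians of -0.11 to 0.41, the latter in HS+A10 against A10. Neu1, the lysosomal sialidase, was lower in Con-FMT than in HS (-0.40 ± 0.11, limma adjusted p = 0.0191) and higher in HS+A10 than in A10 (0.41 ± 0.11, limma adjusted p = 0.0197). Siae, a sialic acid acetylesterase, was higher in HS than in Con (0.49 ± 0.12, limma adjusted p = 0.0124) and in HS+A10 than in A10 (0.53 ± 0.12, limma adjusted p = 0.00531). Amdhd2, which deacetylates N-acetylglucosamine phosphate, was higher in HS+A10 than in HS (0.44 ± 0.13, limma adjusted p = 0.0486) and than in A10 (0.41 ± 0.13, limma adjusted p = 0.0347). Of 14 receptors of sialic acid or of its absence, 4 were tested and limma called 0 in all 7 contrasts, with 1 at an unadjusted p under 0.05, in A10 against Con.

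The genes whose levels over the 18 libraries were most like St3gal1, by Pearson's r of log2(RPKM + 1), were Dpp9 (0.935), Bet1 (0.931), Ncoa5 (0.921), Srsf3 (0.919) and Leo1 (0.911). Dpp9 was at 20.5 RPKM in HS, 14.4 in HS+A10, 13.8 in A10-FMT and 19.1 in Con-FMT, and Bet1 at 37.9, 25.5, 23.2 and 31.9 RPKM, as group means. By group mean, all 5 were lowest in HS+A10 and A10-FMT, as was St3gal1. They were picked for likeness to St3gal1 over these same libraries, HS and A10-FMT included, so nothing is read from this match. The genes most like St6gal1 were Sat1 (0.766), 2310033P09Rik (0.736), Slc39a1 (0.723), Ubald2 (0.688) and Gngt2 (0.684). The likeness of these was weaker, and the libraries share groups, so no p is given.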

How the data were processed

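From mRNA bound to oligo(dT) beads, the authors made Illumina libraries, mapped the reads to reference genes and turned the reads of each gene into RPKM, and the RPKM values were deposited with 2 decimals. The paper names SOAPaligner for this step, while the submitters' processing notes name Bowtie 0.12.2 and mm10, so which aligner made the values is unclear. The deposited RPKM carry no read counts. The steps between low values of 34 genes gave depths of 0.949 to 1.07 relative to the mean.

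After a log2(RPKM + 1) transformation, genes averaging 1 RPKM or more were kept, and 1 mean per group was fitted over all 18 libraries with limma 3.58.1 in R 4.3.3, with a variance trend on expression. Two-sided p-values were adjusted (Benjamini-Hochberg) over the 10204 tested genes. The DEGseq test of the paper was not used because it leaves out how much replicates vary. The 3 members under the filter were tested in a fit without it and by an exact permutation test. Positions came from GENCODE M21 (GRCm38) and promoter bases from RefSeq, read with Python 3.11.15 and pandas 2.3.3, and figures were drawn with matplotlib 3.10.9.

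All members were named, with tests printed for called members and for St3gal1 and St6gal1, up to 3 called genes with the smallest adjusted p per list and comparison, and 5 genes most like St3gal1 and St6gal1. The members and lists were chosen with earlier results of these data known. The settings varied were the pseudocount (0.1), the filter (none, or a mean of 5 RPKM or more), median scaling, quantile normalization, a replicate block, no variance trend, 12 libraries of 4 groups, only the groups compared, and each library left out in turn. The fit of 16 libraries, the list calls without the first or the third Con-FMT library and the ratio of St3gal1 to St3gal4 were chosen after seeing the data.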

Additional observations from a re-analysis of the deposited data

Results flagged for a closer look

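The group means of St3gal1 moved in opposite directions with high-fat diet and STZ in mice without and with AOS. The log2 change was 0.21 from Con to HS, where the libraries overlapped and the change was not called, and -0.85 from A10 to HS+A10. The test of the difference itself, the interaction, gave -1.06 ± 0.19 SE with a limma adjusted p of 0.0638, so a difference in direction was not shown, and HS is 1 of the groups through which the gene was picked.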

How the results depend on the processing

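In HS+A10 against A10, St3gal1 kept its direction and its call (adjusted p up to 0.00682) in every alternative run, and it kept its direction in HS+A10 against HS, A10-FMT against Con-FMT and Con-FMT against HS. The count of members called in HS against Con came to 1 with a mean of at least 5 RPKM and to between 0 and 1 as libraries were left out, with the 1 without the second Con library. The count in HS+A10 against A10 was 2 with no filter and 2 with only the groups compared, and the interaction's count lay between 0 and 1 with a library left out. The change of St6gal1 in A10 against Con turned to 0.12 without the first Con library and lay between -0.31 and 0.12 over the libraries left out. Median scaling gave 2 called pathway genes in HS against Con, where the reported fit gave 6, and the cause was not tested. Between libraries of the same replicate number, deviations from the group means correlated at -0.13 to 0.26, and 10 of 18 libraries were closest to their own number. Whether replicate numbers pair the libraries was not tested. With a replicate block the numbers of members called were as without it: 5 in Con-FMT against HS, 3 in A10-FMT against Con-FMT, 1 in HS+A10 against HS and 1 in HS+A10 against A10. Over all genes the block gave 1695 calls in HS against Con. Over all genes, HS against Con gave 1809 calls, 1618 of them higher, against 884 and 398 with median scaling, and fitting only the groups compared gave 702. Higher calls were 470 of 2413 in Con-FMT against HS (858 of 2098 with median scaling), 686 of 1914 in A10-FMT against Con-FMT (1302 of 2260), 301 of 747 in HS+A10 against HS (579 of 935) and 1388 of 2131 in HS+A10 against A10 (1243 of 2394). Counts over all alternatives ranged from 700 to 1800, 777 to 2507, 687 to 2260, 76 to 1233 (the latter without the first HS library) and 1164 to 2465 in these 5 comparisons, from 0 to 72 in A10 against Con (7 in the reported fit) and from 0 to 118 in the interaction (1 in the reported fit). Single libraries moved these counts by over 1.5 times: HS against Con to 847, 935 and 1066 without Con replicate 1, Con replicate 3 or HS replicate 2; A10-FMT against Con-FMT to 1178 without A10-FMT replicate 2; HS+A10 against HS to 221 and 216 without HS replicate 2 or 3 and to 152 and 407 without HS+A10 replicate 1 or 2; HS+A10 against A10 to 1325, 1372 and 1356 without A10 replicate 2, A10 replicate 3 or HS+A10 replicate 1; A10 against Con to 72 without Con replicate 2 and to 0 without Con replicate 1 or 3 or A10 replicate 3; and the interaction to 118 without HS replicate 1 and to between 0 and 15 without 5 others. The read numbers are unknown, so how far depth limits the low members could not be computed.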
